A study of Mus musculus with 10 samples.

Results

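The genes of the proteasome were compared between livers of Tgfbr2+/- mice, heterozygous knockouts for a receptor of the growth factor TGF-beta, and livers of wild-type controls. Members were all genes whose symbol in the platform annotation starts with Psma, Psmb, Psmc, Psmd, Psme or Psmg. This gave 45 genes on 49 probes, of 16383 genes on the array. Of these, 5 form the immunoproteasome set (Psmb8, Psmb9, Psmb10, Psme1 and Psme2) and the other 40 are called constitutive here. Among the 40, Psmc3ip and Psme3ip1 match by name only and encode no subunit, and leaving both out left the constitutive median difference at -0.025. Psma3, Psmb3, Psmb5 and Psmg4 are not named in the annotation used here and were not analysed.

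The data hold 10 libraries, each the liver RNA of 1 mouse hybridised on 2-colour arrays beside a common pool, made from livers of 6 wild-type mice. The 6 Tgfbr2+/- mice are labelled as males on chow diet, and the 4 wild-type controls as on chow diet, with no sex stated. Strain, age, the design of the mutant allele, and whether the pool includes any of the 4 wild-type mice are not given in the sources used here. Values are log2 ratios, so 0 is the level of the pool and 1 is a doubling. A difference is the Tgfbr2+/- mean minus the wild-type mean, given ± SE. The ratio is likely sample over pool, which the labels do not settle, and every "higher" or "lower" rests on it. P-values measure the spread between these 10 libraries.

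The proteasome is the cell's main machine for breaking down proteins tagged with ubiquitin. Its 20S core is a barrel of alpha and beta subunits, with the proteolytic sites on beta subunits inside. A 19S cap of ATPases and other subunits recognises ubiquitin, unfolds the substrate and feeds it in. When cells receive interferon-gamma, and constantly in many immune cells, newly built cores take in Psmb8, Psmb9 and Psmb10 in place of the catalytic subunits Psmb5, Psmb6 and Psmb7. The PA28 activator, made of Psme1 and Psme2, is induced by the same signal. Immunoproteasomes favour the production of peptides that are loaded on MHC class I.

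Some libraries stand apart. On 1 of the 2 probes for Tgfbr2 (10024401828), 5 of the 6 heterozygous libraries lay below all wild-type ones, and the library labelled Tgfbr2+/- replicate 4 was at 0.20, inside the wild-type range of -0.29 to 0.64, so that it goes against its label on that probe. On the other probe (10024408236) the same library was at -0.10, below all wild-type ones (0.040 to 0.23), while Tgfbr2+/- replicates 3 and 6 were above them at 0.28 and 0.24, and the difference was -0.070 ± 0.086. The sources used here do not say which probe lies in the deleted part. The SD of the log2 ratios over all genes was largest in Tgfbr2+/- replicates 6 (0.24) and 5 (0.22). It was between 0.13 (Tgfbr2+/- replicate 3) and 0.20 (Tgfbr2+/- replicate 2) in the other libraries. Over all probes, library correlations ran from -0.32 to 0.52. The lowest was between wild-type replicate 1 and Tgfbr2+/- replicate 5, which by itself does not show that a column is turned. On probe 10024401828, Tgfbr2+/- replicate 5 was at -0.86, among the heterozygous libraries below all wild-type ones. The median of Kupffer cell and macrophage markers was -0.18 in wild-type replicate 1 and 0.20 in Tgfbr2+/- replicate 5. It ranged from -0.18 to -0.13 in wild type and from 0.0093 to 0.28 in Tgfbr2+/- livers. The direction of the columns is not stated, so results are also given with the sign of either column turned. The libraries are ratios against a liver pool, so hepatocyte or other markers show no absolute level here, and the labelled tissue could not be checked from them.

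The upstream sequences of Psmb8, Psmb9 and Psmb10 are shown because these genes had the largest differences among the 45 and varied together across livers. They are the 250 bases before the annotated start in RefSeq (GRCm38.p6), written 5′ to 3′ along the gene. Capitals mark any match, on either strand, to 5 motifs that were searched: the interferon-stimulated response element core (GAAA and GAAA with 2 bases between), the gamma-activated site TTCNNNGAA, the antioxidant response element core TGACNNNGC, the CCAAT box CCAAT and the E-box CACGTG.
Psmb8, chr17:34197945-34198194, plus strand: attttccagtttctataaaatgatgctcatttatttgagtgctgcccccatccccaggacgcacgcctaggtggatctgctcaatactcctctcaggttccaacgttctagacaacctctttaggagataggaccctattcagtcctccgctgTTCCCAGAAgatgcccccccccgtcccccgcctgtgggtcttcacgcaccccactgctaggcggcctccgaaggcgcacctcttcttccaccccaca
Psmb9, chr17:34187331-34187580, minus strand: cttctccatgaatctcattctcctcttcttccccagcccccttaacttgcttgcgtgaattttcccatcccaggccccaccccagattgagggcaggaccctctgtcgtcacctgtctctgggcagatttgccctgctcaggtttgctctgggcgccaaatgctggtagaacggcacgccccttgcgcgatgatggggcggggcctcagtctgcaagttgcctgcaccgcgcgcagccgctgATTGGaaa
Psmb10, chr8:105938393-105938642, minus strand: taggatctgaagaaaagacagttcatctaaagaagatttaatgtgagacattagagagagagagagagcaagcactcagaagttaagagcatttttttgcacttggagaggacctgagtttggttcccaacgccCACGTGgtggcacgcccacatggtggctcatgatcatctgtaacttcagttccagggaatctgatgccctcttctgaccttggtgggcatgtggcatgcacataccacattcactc

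The match in Psmb8 is to the gamma-activated site, the letters that interferon-induced STAT factors bind. It ends 88 bases before the start. The match in Psmb9 is a CCAAT box on the opposite strand, 3 bases before the start, and the match in Psmb10 is an E-box that ends 110 bases before it. Psmb9 and Tap1, a subunit of the transporter that carries peptides to MHC class I, run in opposite directions from starts 226 bases apart in RefSeq. Psmb8 follows Tap1 in the gene order, in the MHC region of chromosome 17. In the same window, the gamma-activated site was found for 1 of the 5 immunoproteasome genes and 1 of 32 constitutive genes, against 8.13% of the 27025 genes in the promoter table. The interferon-stimulated response element core was found for 0 of 5 and 2 of 32 (Psmd4 and Psmd9), against 3.46%. The antioxidant response element core, read by the factors Nfe2l1 and Nfe2l2, was found for 0 of 5 and 4 of 32 (Psmb6, Psmc6, Psmd9 and Psmd12), against 11.5%. The CCAAT box was found for 1 of 5 and 13 of 32, against 37.5%, and the E-box for 1 of 5 and 4 of 32, against 6.86%. Psmc3ip and Psme3ip1, which encode no subunit, are among the 13, and Psme3ip1 is among the 4 with an E-box. Of the 45 genes, 37 had an entry in that table. These counts describe letters in the window and show no binding.

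Psmb10, Psmb8 and Psmb9 lay above all wild-type livers in 5 of the 6 heterozygous livers, while Tgfbr2+/- replicate 3 lay low for each of them. Of the 45 genes these were the 3 with 5 or 6 heterozygous libraries above every wild-type one, a pattern seen in 2.89% of all genes. The other 2 genes of the set, Psme2 and Psme1, differed less. All 5 differences were positive, with a median of 0.27, against 0.0044 over all genes, of which 52.6% were positive. The set's median was 0.17 with wild-type replicate 1 turned in sign and 0.13 with Tgfbr2+/- replicate 5 turned. No gene of the 45 passed a limma adjusted p of 0.05 (0 of 16383 genes, 0% of the table). At an unadjusted p under 0.05 there was 1 of 45, Psmb10, against 5.54% of all genes (2.97% higher, 2.57% lower). By the exact permutation test 1 of 45 had an unadjusted p under 0.05, also Psmb10, against 4.86% of all genes. For 0 of the 45 did the groups separate fully, where 0.726% of all genes had every heterozygous library above and 0.354% every one below the wild-type ones.

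Psmb10, the inducible subunit that replaces Psmb7, was at -0.058, -0.097, -0.19 and 0.0040 in wild-type replicates 1 to 4. In Tgfbr2+/- livers it ran from -0.12 in replicate 3 through a median of 0.23 to 0.41 in replicate 5. The other 5 heterozygous libraries, at 0.20 or more, lay above every wild-type library, and replicate 3 lay inside the wild-type range. The means were -0.084 ± 0.079 (SD, n = 4) and 0.21 ± 0.18 (SD, n = 6). The difference was 0.30 ± 0.089, or 1.23-fold, with a 95% interval of 0.099 to 0.49 (limma p = 0.00695, adjusted p = 0.699, exact permutation p = 0.0333). Turning the column of wild-type replicate 1 gave 0.27, and turning that of Tgfbr2+/- replicate 5 gave 0.16, where Psmb10 no longer had an unadjusted p under 0.05 (0 of the 45 genes did, against 3.11% of all genes).

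Psmb8, which replaces Psmb5, was at -0.21, 0.091, -0.28 and 0.027 in wild-type replicates 1 to 4. In heterozygous livers it ran from -0.41 in replicate 3 through a median of 0.25 to 0.43 in replicate 6. Replicate 3 was the lowest of all 10 libraries, and the other heterozygous libraries lay above all wild-type ones. The difference was 0.27 ± 0.15, or 1.21-fold, with a 95% interval of -0.064 to 0.61 (limma adjusted p = 0.917, exact permutation p = 0.171). It was 0.17 and 0.13 with wild-type replicate 1 and Tgfbr2+/- replicate 5 turned.

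Psmb9, which replaces Psmb6, was at -0.060, -0.020, -0.40 and -0.16 in wild-type replicates 1 to 4, all below the pool. In heterozygous livers it ran from -0.71 in replicate 3 through a median of 0.26 to 0.55 in the library labelled replicate 4. Replicate 3 was again the lowest of the 10, and wild-type replicate 3 was the next lowest. The difference was 0.31 ± 0.20, or 1.24-fold, with a 95% interval of -0.13 to 0.76 (limma adjusted p = 0.919, exact permutation p = 0.214). It was 0.28 and 0.20 with the respective columns turned, and 0.23 without the library labelled Tgfbr2+/- replicate 4.

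**Figure D1:**
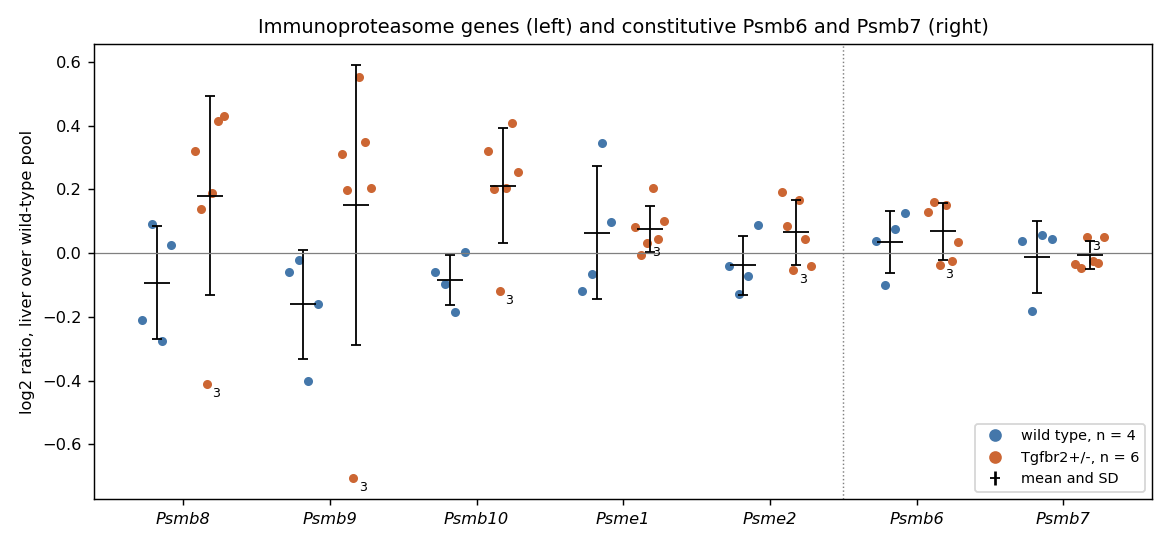
Log2 ratio over the wild-type pool (vertical axis) of the 5 immunoproteasome genes and of constitutive Psmb6 and Psmb7, 1 point per liver, blue for 4 wild-type and orange for 6 Tgfbr2+/- libraries. Horizontal bars are means and vertical bars SDs, and the digit 3 marks Tgfbr2+/- replicate 3, which lies at -0.41 for Psmb8, -0.71 for Psmb9 and -0.12 for Psmb10 while the other 5 heterozygous points lie above all wild-type points for these genes.

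A single heterozygous library carried much of the spread of these genes. Without Tgfbr2+/- replicate 3 the differences were 0.36 for Psmb10 (limma adjusted p = 0.0704), 0.48 for Psmb9 (adjusted p = 0.134) and 0.39 for Psmb8 (adjusted p = 0.284). The 3 genes were then those of the 45 at an unadjusted p under 0.05, against 7.05% of all genes, and still 0 of the 45 passed the adjusted threshold, which 10 of all genes did. The count of 1 at the unadjusted threshold also became 3 without wild-type replicate 4 (Psmb10, Psme2 and Psmd9), where 7.66% of all genes passed. It became 2 without wild-type replicate 2 (Psmb10 and Psma1, against 5.4% of all genes) or Tgfbr2+/- replicate 6 (Psmb10 and Psmd4, against 7.21%). Leaving out wild-type replicate 3 and Tgfbr2+/- replicate 3 together, the lowest libraries of Psmb9, gave 0.33 for Psmb10, 0.40 for Psmb9 and 0.33 for Psmb8 (adjusted p = 0.245, 0.338 and 0.725). The adjusted p of Psmb10 ran from 0.0704 to 1 over the alternatives.

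The PA28 genes differed less. Psme2, on 2 probes, was at -0.040, -0.13, -0.073 and 0.089 in wild type and from -0.053 through a median of 0.065 to 0.19 in Tgfbr2+/- livers, so the groups overlapped. Its difference was 0.10 ± 0.063 (limma adjusted p = 0.919), and the probes gave 0.12 and 0.091. Psme1 was at -0.12, -0.065, 0.35 and 0.097 in wild type and from -0.0047 through 0.062 to 0.20 in Tgfbr2+/- livers. Its heterozygous libraries lay inside the wild-type range, with a difference of 0.011 ± 0.084 (95% interval -0.17 to 0.20, adjusted p = 0.994). Wild-type replicate 3, at 0.35, was the highest of the 10: without it the difference was 0.11, and without wild-type replicate 1, wild-type replicate 2 or the library labelled Tgfbr2+/- replicate 4 it was negative, at -0.050, -0.032 and -0.014.

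The inducible catalytic genes followed each other from liver to liver. Over the 10 libraries Psmb8 correlated with Psmb10 at r = 0.889 (permutation p = 0.00066, adjusted 0.00945 over 15 pairs among the 5 genes and Tap1) and rho = 0.915 (permutation p = 0.00051, adjusted p = 0.00765). Psmb8 correlated with Psmb9 at r = 0.860 (permutation p = 0.00126, adjusted p = 0.00945) and rho = 0.879 (permutation p = 0.00185, adjusted p = 0.0110), and Psmb9 with Psmb10 at r = 0.826 (permutation p = 0.0026, adjusted p = 0.0130) and rho = 0.867 (permutation p = 0.0022, adjusted p = 0.0110). Without the 2 libraries farthest from the median of the first gene, r was 0.847, 0.639 and 0.777. Within the 6 heterozygous libraries r was 0.952, 0.858 and 0.857, with exact permutation p of 0.0153, 0.104 and 0.0736 (adjusted p = 0.229, 0.260 and 0.260), and no value is given over the 4 wild-type libraries alone. With a column turned in sign r lay between 0.790 and 0.889 for these pairs. Over the 10 libraries, r for these pairs and for those with Tap1 also takes in the difference between the groups. Each pair is read from the same arrays, so any difference between arrays is shared.

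Tap1 also correlated with these genes over the 10 libraries, with Psmb8 at r = 0.821 (permutation p = 0.00477, adjusted p = 0.0179; rho = 0.794, permutation p = 0.00882, adjusted p = 0.0331), and with Psmb9, its divergent neighbour, at r = 0.750 (permutation p = 0.0117, adjusted p = 0.0293; rho = 0.661, permutation p = 0.0448, adjusted p = 0.0960). Within the heterozygous libraries these were 0.871 and 0.796 (exact permutation p = 0.0750 and 0.164, adjusted p = 0.260 and 0.351), and without the 2 farthest libraries 0.791 and 0.660. The wild-type livers did not share this order: wild-type replicate 3 was the highest of them for Tap1 (-0.085) and the lowest for Psmb8 (-0.28), Psmb9 (-0.40) and Psmb10 (-0.19). Psme1 did not follow: its r with Psmb8, Psmb9 and Psmb10 was -0.035, -0.030 and -0.041 (permutation p = 0.924, 0.933 and 0.911; adjusted p = 0.933 for each; rho = 0.200, 0.164 and 0.115, permutation p = 0.583, 0.657 and 0.758). These values rest on the 2 libraries farthest from the median of the other gene, since without them r was 0.628 with Psmb9 and 0.583 with Psmb10, and positive with Psmb8.

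The constitutive subunits lay close to the pool in both groups. Their median difference was -0.025, with 14 of 40 positive, against 52.6% of all genes. Single differences ran from -0.24 for Psmc6 to 0.083 for Psmd5. Of the 45 genes, 37 differed by less than 0.1 in either direction, against 76.6% of all genes, and the 1 immunoproteasome gene among them was Psme1. The 95% interval lay within 0.25 of 0 for 35 of 45, against 65.4% of all genes. With Tgfbr2+/- replicate 5 turned in sign the constitutive median was 0.014, and with wild-type replicate 1 turned it was -0.021. The median SD over the 10 libraries was 0.093 for constitutive genes, 0.21 for the immunoproteasome set and 0.11 over all genes.

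**Figure D2:**
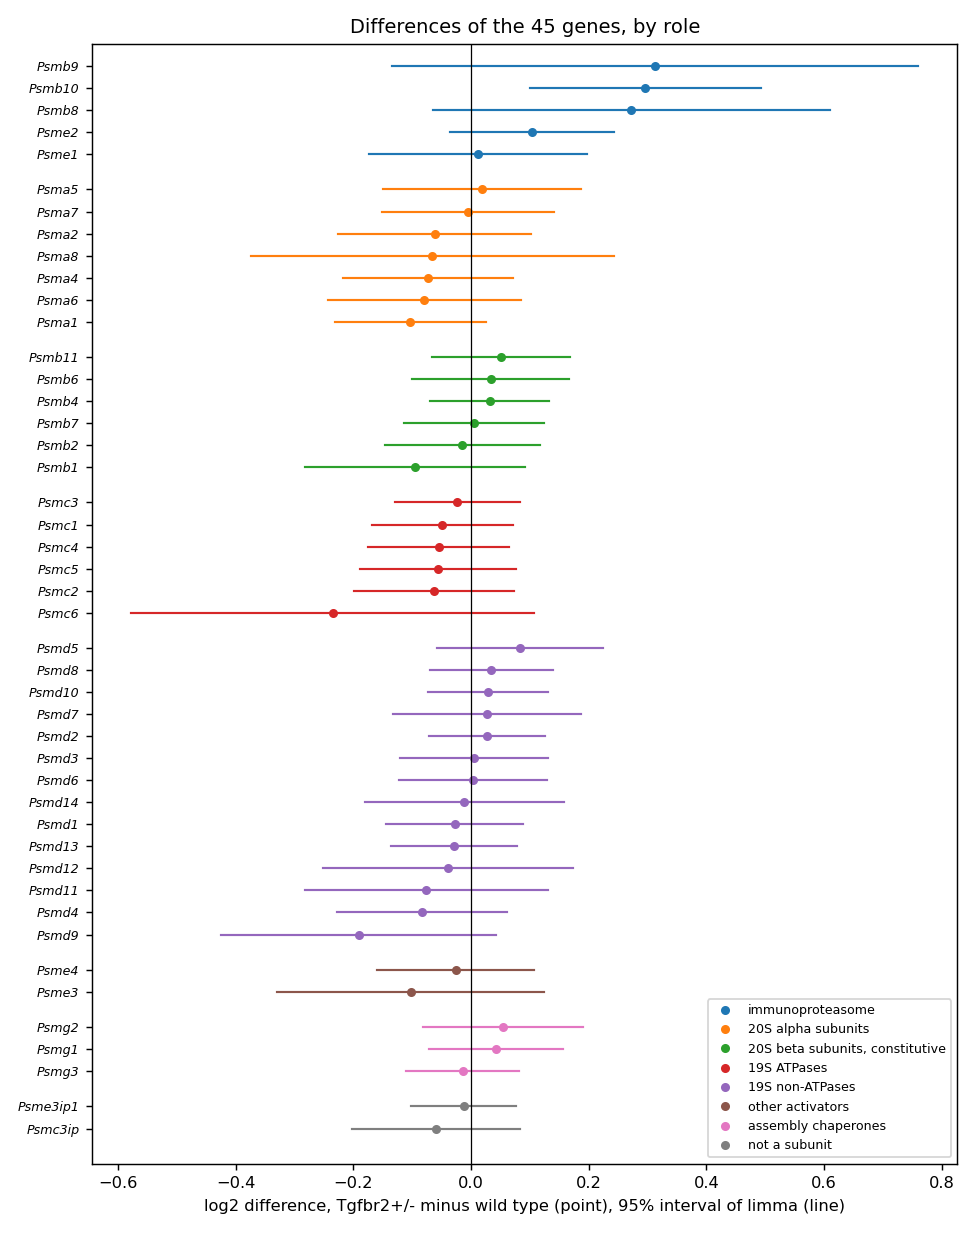
Difference Tgfbr2+/- minus wild type on the log2 scale (horizontal axis) for each of the 45 genes, coloured and grouped by role, with limma's 95% interval as a line. Psmb9, Psmb10 and Psmb8 lie at 0.31, 0.30 and 0.27, while the constitutive genes lie between -0.24 and 0.083 and each of their intervals crosses 0.

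Among the constitutive counterparts of the inducible subunits, Psmb6 was at 0.038, -0.10, 0.077 and 0.13 in wild type and from -0.037 through 0.082 to 0.16 in Tgfbr2+/- livers. Its difference was 0.034 ± 0.061 (95% interval -0.10 to 0.17, limma adjusted p = 0.961). Psmb7 was at 0.038, -0.18, 0.056 and 0.043 in wild type and from -0.045 through -0.028 to 0.050 in Tgfbr2+/- livers, with a difference of 0.0056 ± 0.054 (95% interval -0.11 to 0.12, adjusted p = 0.994). The groups overlapped for both. The intervals of Psmb6 and Psmb7 end below the point differences of Psmb9 (0.31) and Psmb10 (0.30), the subunits that take their places, whose own intervals begin at -0.13 and 0.099. The difference between an inducible gene and its counterpart was not itself tested.

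The other 20S beta genes on the array are structural subunits Psmb1, Psmb2 and Psmb4, and Psmb11, the subunit known from thymus cortex. Psmb1 was at 0.064, 0.0038, -0.037 and 0.21 in wild type and from -0.29 in replicate 5 through 0.0022 to 0.13 in Tgfbr2+/- livers, a difference of -0.095 ± 0.085 (limma adjusted p = 0.932). Its 2 probes gave -0.077 and -0.11, and the second had the larger SE (0.14 against 0.047). The difference of the gene was -0.044 if either Tgfbr2+/- replicate 5 or wild-type replicate 4 was left out, and 0.00057 with the former turned in sign. Psmb11 was at 0.058, -0.10, -0.088 and 0.014 in wild type and from -0.077 through 0.027 to 0.099 in Tgfbr2+/- livers, a difference of 0.051 ± 0.053. Both genes overlapped between the groups. Psmb2 differed by -0.015 and Psmb4 by 0.032.

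The 20S alpha subunits form the outer rings that gate the core. Of the 7 measured, 1 difference was positive (Psma5, 0.018) and 6 were negative, with a median of -0.066. Over all genes 52.6% of differences were positive. Tgfbr2+/- replicate 5 was the lowest library for each of the 7, so the count and median depend on it. Psma1 was at 0.18, -0.093, 0.059 and 0.036 in wild type and from -0.19 in replicate 5 through -0.048 to 0.023 in Tgfbr2+/- livers. Its difference was -0.10 ± 0.058 (limma adjusted p = 0.917, exact permutation p = 0.114). Psma4 was at 0.073, -0.13, 0.0070 and -0.012 in wild type and from -0.27 through -0.080 to 0.069 in Tgfbr2+/- livers, a difference of -0.073 ± 0.066 (adjusted p = 0.933). Psma2, Psma6, Psma7 and Psma8, the last a subunit of testis, differed by -0.062, -0.080, -0.0056 and -0.066.

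Tgfbr2+/- replicate 5 was the lowest of the 10 libraries for 7 of the 7 alpha genes and for 16 of the 40 constitutive genes (40%), where it was the lowest for 18.3% of all genes. Its median over the alpha genes was -0.27, against -0.0023 to 0.084 in the other heterozygous and -0.093 to 0.088 in the wild-type libraries. In the same liver the immunoproteasome median was 0.35, the highest of the 10. Without this library the constitutive median difference was -0.0073, and Psma1 and Psma4 differed by -0.077 and -0.037. The count of positive alpha genes was not repeated without it. With its sign turned the difference of Psma4 was 0.017.

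**Figure D3:**
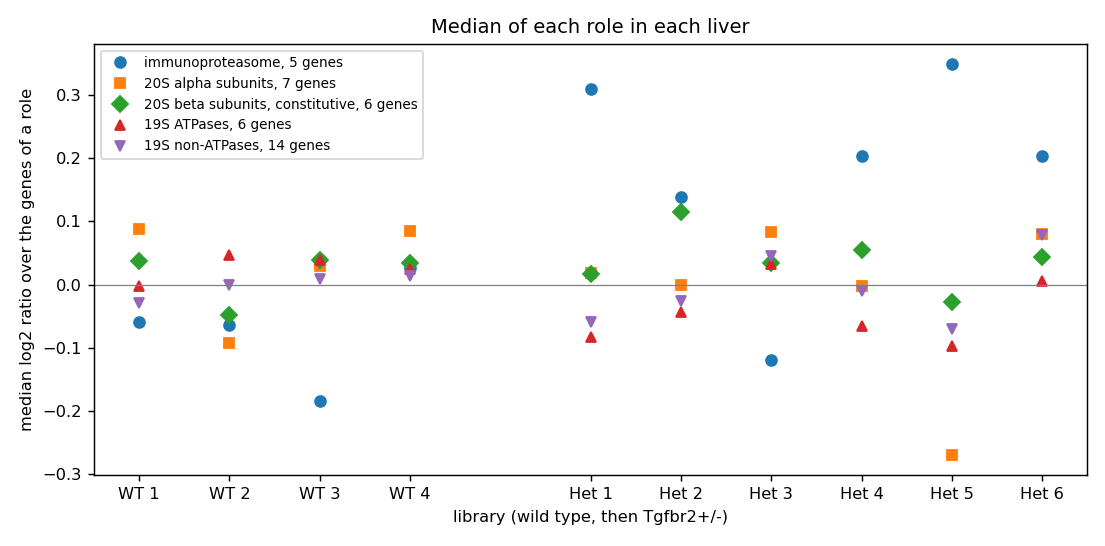
Median log2 ratio over the genes of a role (vertical axis) in each of the 4 wild-type (WT) and 6 Tgfbr2+/- (Het) libraries, 1 symbol and colour per role. The immunoproteasome median is 0.14 to 0.35 in 5 heterozygous libraries and -0.12 in replicate 3, against -0.19 to 0.027 in wild type, and the alpha median of replicate 5 is -0.27.

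In the 19S cap, the 6 ATPases that unfold substrates all had negative differences, with a median of -0.056. Over all genes 52.6% of differences were positive. None of the 6 had an unadjusted p under 0.05, against 5.54% of all genes. Psmc6 had the lowest difference of the 45 genes, -0.24 ± 0.16 (limma adjusted p = 0.919, exact permutation p = 0.243). It was at 0.34, -0.081, -0.046 and -0.23 in wild type. In Tgfbr2+/- livers it was at -0.72 in replicate 5 and -0.50 in replicate 6 and between -0.10 and -0.018 in the other 4, inside the wild-type range. Its difference was -0.12 if wild-type replicate 1 was left out, -0.068 with that library turned in sign and 0.0040 with Tgfbr2+/- replicate 5 turned. Psmc4 was at 0.023, 0.085, 0.098 and -0.046 in wild type and from -0.13 through -0.00083 to 0.075 in Tgfbr2+/- livers, a difference of -0.055 ± 0.054. Psmc1, Psmc2, Psmc3 and Psmc5 differed by -0.049, -0.063, -0.023 and -0.056.

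Of the 14 measured 19S genes other than ATPases, 7 had positive and 7 negative differences (52.6% positive over all genes), with a median of -0.0042. Psmd9, a chaperone of cap assembly, differed by -0.19 ± 0.11 (limma adjusted p = 0.917, exact permutation p = 0.138) and by -0.22 and -0.17 on its 2 probes. It was at -0.062, 0.34, 0.18 and -0.17 in wild type and from -0.29 through -0.17 to 0.075 in Tgfbr2+/- livers. Wild-type replicates 2 and 3 were its highest libraries, and the difference was -0.10 without the former and -0.27 if wild-type replicate 4 was left out. Psmd5, which also guides cap assembly, was at -0.039, -0.20, -0.030 and 0.076 in wild type and from -0.12 through 0.044 to 0.16 in Tgfbr2+/- livers, a difference of 0.083 ± 0.064. Without wild-type replicate 2, its lowest library, that difference was 0.033. The ubiquitin receptor Psmd4 differed by -0.083 and the deubiquitinase Psmd14 by -0.011. The large scaffold subunits Psmd1 and Psmd2 differed by -0.028 and 0.027. The remaining members of this group lay between -0.076 (Psmd11) and 0.035 (Psmd8).

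The other activators are Psme3, or PA28-gamma of the nucleus, and Psme4, or PA200. Psme3 was at -0.026, 0.18, 0.58 and -0.016 in wild type and from -0.012 through 0.097 to 0.12 in Tgfbr2+/- livers. Wild-type replicate 3 stood above the rest, and the difference of -0.10 ± 0.10 (limma adjusted p = 0.934) was 0.031 without it. Psme4 was at 0.10, -0.0063, 0.034 and 0.0076 in wild type and from -0.17 through -0.0020 to 0.15 in Tgfbr2+/- livers, a difference of -0.026 ± 0.061. Among the chaperones that assemble the core, Psmg2 differed by 0.055 ± 0.062, Psmg1 by 0.043 ± 0.052 and Psmg3 by -0.014 ± 0.044. Psmg2 was at -0.024, 0.057, -0.16 and -0.12 in wild type and from -0.15 through -0.0075 to 0.14 in Tgfbr2+/- livers. Psmg1 was at -0.031, -0.15, -0.066 and -0.12 in wild type and from -0.18 through -0.038 to 0.077 in Tgfbr2+/- livers. The groups overlapped for all of these genes. Of the genes that are no subunits, Psmc3ip, a meiotic recombination factor, differed by -0.060 and Psme3ip1 by -0.012.

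The mean of either group was also tested against the pool, which is a comparison that leaves out the pool's own spread. With limma 0 of the 45 genes passed an adjusted p of 0.05 in Tgfbr2+/- livers (0.0122% of all genes did) and 0 in wild type (0% of all genes). At an unadjusted p under 0.05 there were 3 in Tgfbr2+/- livers, Psmb10 above the pool (0.21) and Psmc6 (-0.24) and Psmd13 (-0.082) below it, against 18.3% of all genes. In wild type there were 2, Psme3 (0.18) and Psmg1 (-0.091), against 4.14% of all genes. Without Tgfbr2+/- replicate 3 Psmb10 lay above the pool at 0.28 (limma adjusted p = 0.0262), where 0.293% of all genes passed.

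Genes that act with the proteasome had small differences. For the counts below, the shares over all genes were 52.6% positive and 5.54% at an unadjusted p under 0.05. Of 23 measured factors that bind the proteasome, bring it substrates or control its genes, 9 had positive differences, 0 had an unadjusted p under 0.05, and the median was -0.019. The assembly factor Pomp differed by -0.028 ± 0.10, and Nfe2l1, the transcription factor that raises subunit genes when proteasome activity falls, by 0.0084 ± 0.042 (limma adjusted p = 0.988 and 0.990). The lowest p among negative differences belonged to the shuttle factor Rad23b (-0.11 ± 0.059) and the deubiquitinase Usp14 (-0.091 ± 0.065), and among positive ones to Nploc4 (0.039 ± 0.039) and Ubqln2 (0.084 ± 0.086). Of 8 measured ubiquitin-conjugation genes, 5 had positive differences, with a median of 0.037 and 0 at an unadjusted p under 0.05. Ube2v1 (0.075 ± 0.047) and Ube2r2 (0.051 ± 0.051) had the lowest p among the positive ones, and Ube2d1 (-0.071 ± 0.085) and Ube2d2a (-0.023 ± 0.063) among the negative ones.

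Of 13 measured genes of MHC class I presentation, 12 had positive differences, 2 had an unadjusted p under 0.05 and 0 passed the adjusted threshold, with a median of 0.090. The 2 were H2-M3 (0.23 ± 0.098) and Tap1 (0.16 ± 0.074, limma adjusted p = 0.900), and the 1 negative difference was that of the chaperone Calr (-0.029 ± 0.13). Tap1 was at -0.19, -0.15, -0.085 and -0.12 in wild type, and at 0.049, 0.15, -0.25, 0.0030, 0.085 and 0.12 in Tgfbr2+/- replicates 1 to 6. As for Psmb8, 5 heterozygous libraries lay above all wild-type ones and replicate 3 below them. Over all genes, 2.89% had 5 or 6 heterozygous libraries above every wild-type one. Of 15 regulators of interferon signalling, 14 had positive differences, with a median of 0.11 and 0 at an unadjusted p under 0.05. Beside both lists, the shares over all genes were 52.6% positive and 5.54% at an unadjusted p under 0.05. Irf1, the factor that interferon-gamma induces, differed by 0.34 ± 0.19 (adjusted p = 0.917), Socs1 by 0.25 ± 0.12, Ifngr1 by 0.14 ± 0.068 and Irf2, the 1 negative, by -0.11 ± 0.083.

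Markers of immune cells, many of which carry immunoproteasomes constantly, were among the genes with positive differences. Over all genes, 52.6% of differences were positive and 2.97% were higher at an unadjusted p under 0.05. Of 18 measured Kupffer cell and macrophage markers, 16 had positive differences and 14 an unadjusted p under 0.05, all higher, with 0 past the adjusted threshold. Their median log2 ratio was -0.18 to -0.13 in wild type and 0.0093 to 0.28 in Tgfbr2+/- livers, lowest among these in replicate 3. Cd5l, a protein secreted by macrophages, differed by 0.67 ± 0.097 and the lysosomal protease Ctss by 0.58 ± 0.085, while Marco (-0.17 ± 0.37) and Cd163 (-0.053 ± 0.22) were the negative ones. Of 18 lymphocyte markers 12 had positive differences. The lymphocyte median was -0.041 to 0.056 in wild type and -0.0032 to 0.094 in Tgfbr2+/- livers, again lowest in replicate 3. Ptprc, which all white blood cells carry, differed by 0.44 ± 0.098 and was the only lymphocyte marker at an unadjusted p under 0.05. The T cell genes Cd3e, Cd4 and Cd3d differed by 0.12 ± 0.065, -0.12 ± 0.072 and -0.098 ± 0.066. Of 10 neutrophil markers, 9 had positive differences and 3 an unadjusted p under 0.05. S100a9 (0.79 ± 0.18) and S100a8 (0.33 ± 0.097) had the lowest p among them, and Camp, the 1 negative, differed by -0.13 ± 0.14. The part of these cells in the immunoproteasome values was not tested. In bulk liver, more cells of a type and more RNA per cell cannot be told apart.

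**Figure D4:**
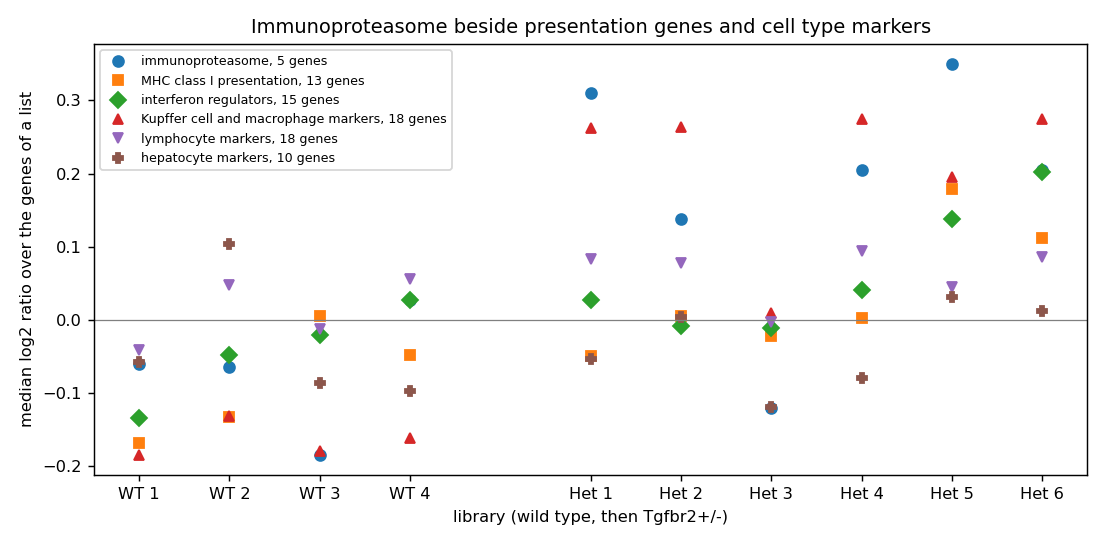
Median log2 ratio over the genes of a list (vertical axis) in each wild-type (WT) and Tgfbr2+/- (Het) library for the immunoproteasome set, MHC class I presentation, interferon regulators, and macrophage, lymphocyte and hepatocyte markers. In Tgfbr2+/- replicate 3 the immunoproteasome median is -0.12 and the macrophage median 0.0093, the lowest heterozygous values of both lists. The hepatocyte (-0.12), lymphocyte (-0.0032) and interferon (-0.011) medians are also lowest there among heterozygous libraries. The MHC class I median is lowest in replicate 1 (-0.049).

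Markers of the remaining liver cells had median differences near 0, with members in both directions. Over all genes, 52.6% of differences were positive and 5.54% had an unadjusted p under 0.05. Hepatocyte markers had a median difference of 0.0093 (6 of 10 positive), with Hnf4a (0.060 ± 0.047), Ttr (0.11 ± 0.088), Ass1 (-0.19 ± 0.12) and Apoa1 (-0.14 ± 0.10) leading by p. Stellate cell markers had a median of 0.019 (6 of 11 positive), with Lrat (0.15 ± 0.080), Rgs5 (0.094 ± 0.057), Col1a1 (-0.91 ± 0.60) and Acta2 (-0.090 ± 0.099). The value of Col1a1 rests on wild-type replicate 1, at 1.95, while the other wild-type libraries were at -1.51, -0.81 and -1.12 and the heterozygous ones between -2.34 and -0.58. Endothelial markers had a median of -0.0028 (6 of 12 positive). Of these, Clec4g (0.27 ± 0.077) and Fcgr2b (0.36 ± 0.11) had an unadjusted p under 0.05, and Stab2 (-0.084 ± 0.039) and Lyve1 (-0.13 ± 0.096) led the negative ones. In the stellate and hepatocyte lists no gene had an unadjusted p under 0.05, and none of the 3 lists had a gene past the adjusted threshold. The median log2 ratio of hepatocyte markers was -0.12 in Tgfbr2+/- replicate 3, the lowest of the 10 libraries.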

How the data were processed

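Liver RNA of 10 mice was profiled on 2-colour arrays, each against the common pool. The deposited values are log10 ratios. The base was inferred from 8 values at exactly 2 or -2, the scale and direction are not stated, and deposited column medians lie between 0.0013 and 0.0047. Per the labels' protocols, RNA came from RNeasy columns with DNase and was labelled by an automated aminoallyl MessageAmp II method. Per the labels, the channels are Cy3 and Cy5. Dye swaps are mentioned in the design text, and which columns join swapped arrays, the scanner software, background correction and normalization are not given in the sources used here. Intensities were not used here, so signal over background is unknown.

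Values were multiplied by 3.32 to give log2 and averaged per symbol (17726 probes with 1 symbol, 50 with several, 5662 unnamed here). Differences were fitted with limma 3.58.1 (lmFit, eBayes) in R 4.3.3, two-sided, and Benjamini-Hochberg adjusted over all 16383 genes. Exact two-sided permutation tests used all 210 assignments of libraries (smallest p 0.0048). Correlations used 100000 permutations, or all orders for 6 libraries. The fit was tested on simulated data. The 45 symbols matched RefSeq by Entrez identifier. Replicates are taken to be separate mice, per the series design.

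Named genes are the immunoproteasome genes, Psmb6 and Psmb7, the 2 of smallest p per role, and the 2 of smallest p per direction in each list, with Tap1, Pomp, Nfe2l1 and Irf1. Members, lists and rules were chosen with earlier results of these data known.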

Additional observations from a re-analysis of the deposited data

Results flagged for a closer look

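A library far from the others of its group was found in 4 of 42 groups of values, where about 1 in 20 groups is flagged by chance. In Tgfbr2+/- livers, Psmb8 at -0.41 and Psmb9 at -0.71 were both in replicate 3, and Psma1 at -0.19 was in replicate 5. In wild type, Psmb7 at -0.18 was in replicate 2.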

How the results depend on the processing

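Under every alternative run, 0 of the 45 genes passed the adjusted threshold between the groups, and Psmb8, Psmb9, Psmb10 and Psme2 kept positive differences. Leaving out each library in turn, the immunoproteasome median difference ranged from 0.21 to 0.36, the constitutive one from -0.034 to -0.0073, the count at an unadjusted p under 0.05 from 1 to 3 and the count above or below the pool in Tgfbr2+/- livers from 0 to 1. The immunoproteasome median was 0.13 with Tgfbr2+/- replicate 5 turned in sign. The unadjusted count was then 0 (3.11% of all genes). It was 2 with wild-type replicate 1 turned (3.56%) and 2 with array weights (8.25%). It was 3 with wild-type 3 and Tgfbr2+/- 3 left out together (4.88%), where the count against the pool was 1 (Psmb10). The causes were not tested.

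Some differences changed sign, and not only those near 0. Among them were Psmc6 (-0.24), Psme3 (-0.10), Psmb1 (-0.095) and Psma4 (-0.073), given here with all libraries and no column turned. With wild-type replicate 1 turned, Psme1 was at -0.048 and Psme4 at 0.024. With Tgfbr2+/- replicate 5 turned, Psme1 was at -0.0033, Psma4 at 0.017, Psmb1 at 0.00057, Psmc6 at 0.0040 and Psme4 at 0.030. With array weights Psme1 was at -0.017 and Psmb7 at -0.022. With wild-type 1 and Tgfbr2+/- 5 left out together Psme1 was at -0.043 and Psme4 at 0.032, and with wild-type 3 and Tgfbr2+/- 3 left out Psme3 was at 0.036. Leaving out single libraries, Psme1 ranged from -0.050 to 0.11, Psmb6 from -0.012 to 0.064, Psmb7 from -0.051 to 0.028, Psme3 from -0.17 to 0.031 and Psme4 from -0.055 to 0.0093.

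The groups share the numbers 1 to 4 in their titles. Deviations of same-numbered libraries correlated at 0.034, 0.082, 0.31 and 0.074. Wild-type replicates 2, 3 and 4 correlated best with the heterozygous library of the same number. Wild-type replicate 1 correlated best with Tgfbr2+/- replicate 4. Whether the numbers mark a pairing is not settled. With the replicate number as a block, fitted on these 8 libraries, 2 of the 45 genes had an unadjusted p under 0.05, against 9.27% of all genes (1, against 6.68%, without the block on the same libraries), 0 passed the adjusted threshold, the immunoproteasome median was 0.15 and Psmb7 was at -0.0022 in both fits. The pairs of libraries left out together, the 8 libraries without the block, and the constitutive median without Psmc3ip and Psme3ip1 were chosen after seeing the data. The number of arrays limits precision.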
